A study of Mus musculus with 21 samples.

Results

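The genes described here are 9 that keratinocytes use to cut, release and rebuild matrix when they cross a wound: the metalloproteinases Mmp3, Mmp9, Mmp10 and Mmp13, the plasminogen activators Plau and Plat, the activator receptor Plaur, the metalloproteinase inhibitor Timp1 and the matrix glycoprotein gene Tnc. They were taken by symbol and are 9 of the 49315 gene identifiers in each file. All 9 were found, and all 9 passed the filter on low counts. The study measured total RNA of mouse epidermis after targeting of the transcription factors AP-2α (Tfap2a) and AP-2β (Tfap2b), in 21 samples of 7 groups with 3 samples each. In 13 files, all from mice aged 3 weeks, every gene was listed at 0, which left 8 libraries of 11318181 to 17746284 counts.

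Of these 8 libraries, 3 came from mice aged 6 months with the genotype label WT, a strain-specific control, and 3 from mice of the same age with the genotype K14CreTfap2afl/flTfap2bfl/fl, called double knockout below (double cKO in the plots, DKO in the text). The other 2 came from K14CreTfap2bfl/fl mice aged 3 weeks, called Tfap2b knockout below. Cre was driven by the keratin 14 promoter, which is active in basal keratinocytes. Cells of other lineages in the tissue would be expected to keep intact alleles, but recombination was not tested here. The labels do not say how WT was defined (with or without floxed alleles, for example), nor whether the samples of a group came from separate animals, so p-values measure only the spread between these samples. The comparison asks how the adult epidermis differs once both genes are targeted, and it used edgeR's quasi-likelihood test of the 6 libraries at 6 months over all genes, with Benjamini-Hochberg adjustment.

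Matrix metalloproteinases are zinc enzymes made as inactive proenzymes. Tissue inhibitors of metalloproteinases (TIMPs) bind and block them. Plasminogen activators turn plasminogen into plasmin, a serine protease that dissolves fibrin and can activate several metalloproteinase proenzymes. At a skin wound, keratinocytes leave their basement membrane, switch on collagenase and stromelysin genes, and move over a provisional matrix that contains tenascin C. In resting epidermis most of these genes are low.

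The promoters are shown because 3 of the 4 metalloproteinases lie in one gene cluster on chromosome 9, of which Mmp13 and Mmp3 passed the threshold at 6 months and Mmp10 did not. Tnc is added as the matrix gene that passed. RefSeq promoter windows (GRCm38.p6) were found for 6 of the 9 genes, and the 250 bases before the transcript start were searched on both strands for AP-1 letters as TGANTCA, AP-2 letters as GCCNNNGGC, an ETS core as AGGAAG and a TATA box as TATAAA. Capitals mark every match, and no 2 matches overlapped in the windows printed. Mmp13 is shown from chr9:7272264-7272513 (plus strand), Mmp3 from chr9:7445572-7445821 (plus strand), Mmp10 from chr9:7502092-7502341 (plus strand) and the upstream of 2 annotated starts of Tnc from chr4:64047016-64047265 (minus strand), each 5′ to 3′.
Mmp13: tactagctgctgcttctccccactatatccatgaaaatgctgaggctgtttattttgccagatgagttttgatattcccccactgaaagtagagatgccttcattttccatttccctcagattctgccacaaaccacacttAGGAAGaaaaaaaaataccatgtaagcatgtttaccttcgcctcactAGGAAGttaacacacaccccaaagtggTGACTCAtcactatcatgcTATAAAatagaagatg
Mmp3: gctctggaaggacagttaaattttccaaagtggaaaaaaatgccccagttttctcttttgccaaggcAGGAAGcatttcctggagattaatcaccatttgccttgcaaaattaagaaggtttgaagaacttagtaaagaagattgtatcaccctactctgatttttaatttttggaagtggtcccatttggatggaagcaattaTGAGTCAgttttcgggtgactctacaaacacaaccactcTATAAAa
Mmp10: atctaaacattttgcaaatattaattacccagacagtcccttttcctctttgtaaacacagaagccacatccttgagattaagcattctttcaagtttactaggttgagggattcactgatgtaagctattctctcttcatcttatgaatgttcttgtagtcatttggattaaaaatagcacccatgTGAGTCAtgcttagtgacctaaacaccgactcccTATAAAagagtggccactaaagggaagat
Tnc: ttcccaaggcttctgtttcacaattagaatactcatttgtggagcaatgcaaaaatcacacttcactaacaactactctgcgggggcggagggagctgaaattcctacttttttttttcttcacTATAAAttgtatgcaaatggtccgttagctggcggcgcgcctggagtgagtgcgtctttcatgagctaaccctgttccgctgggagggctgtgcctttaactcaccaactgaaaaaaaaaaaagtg

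Each of the 3 metalloproteinase windows held 1 AP-1 match and 1 TATA match. The AP-1 match was TGACTCA in Mmp13, 35 to 29 bases before the start, and TGAGTCA in Mmp3 (46 to 40 bases) and Mmp10 (63 to 57 bases). The Plaur window also held an AP-1 match, TGACTCA, 69 to 63 bases before the start, whereas the Timp1 window and both Tnc windows held none. ETS matches numbered 2 in Mmp13, 2 in Timp1 and 1 each in Mmp3, Plaur and the downstream Tnc window. The AP-2 letters were found in none of these windows. Among 32851 windows of the same length in the RefSeq table, 6.75% held the AP-1 letters, 13.7% the AP-2 letters, 29.5% the ETS letters and 12.4% the TATA letters. A match is a string of letters and says nothing of binding.

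At 6 months, 4 of the 9 genes were higher in libraries labelled DKO, namely Mmp13, Mmp3, Tnc and Plau, and 1, Plat, was lower, at an edgeR adjusted p under 0.05. Mmp9, Mmp10, Timp1 and Plaur did not pass. Of the 17755 genes tested, 14.9% passed in either direction, 6.26% as higher and 8.59% as lower. The median log2 fold change was 1.16 over the 9 genes, the value of Timp1, and -0.035 over all genes tested. Mmp10, Mmp13 and Timp1 held 2, 2 and 5 counts in control replicate 3. These 3 genes passed the filter on low counts only with the libraries labelled DKO, where they were higher. Neither the median nor the number of genes called is therefore a test of the set. Levels in CPM, the counts of a gene per 1000000 counts of its library, did not overlap between the groups for 7 of the 9 genes, 6 with higher values in libraries labelled DKO and 1 with lower, against 38.7% of all genes tested (22.5% higher and 16.3% lower).

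**Figure D1:**
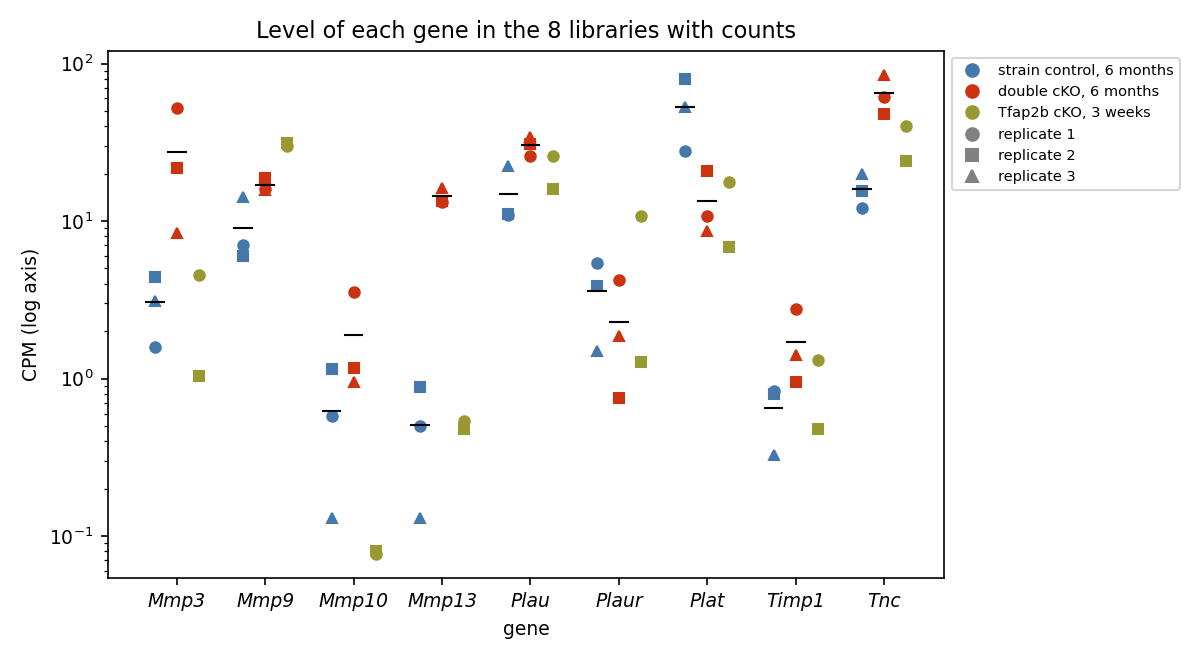
CPM of each of the 9 genes (log axis) in 3 libraries labelled strain control and 3 labelled double knockout at 6 months and 2 labelled Tfap2b knockout at 3 weeks. Points are libraries, the marker shape gives the replicate number, and black lines are means of 3. Mmp13 lies between 13.3 and 16.3 CPM in libraries labelled DKO and at or below 0.884 CPM in the controls, and Plat lies lower in all 3 libraries labelled DKO.

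3 features of the libraries bear on these values. Tfap2a, one of the targeted genes, was not lower in libraries labelled DKO (213 to 309 CPM against 140 to 210 CPM in the controls), and Tfap2b was at 53.8 to 57.2 against 57.3 to 86.6 CPM (edgeR log2 fold change -0.43, adjusted p 0.111). In the 2 libraries labelled Tfap2b knockout, Tfap2b was at 44.9 and 71.7 CPM, the second within the range of the controls at 6 months. Gene counts take in reads outside any deleted exon, and all directions here are those of the labels. Control replicates 1 and 2 held 1.61 and 3.19 counts per exonic kb in odorant and vomeronasal receptor genes, which are read mainly in olfactory tissue, against 0.0970 to 0.195 in the other 6 libraries. These 2 controls also had counts in more genes of any kind, 35794 and 39362, against 23454 to 25537 in the other 6. The library labelled Tfap2b knockout replicate 1 held 2556 CPM summed over 6 dermal fibroblast markers and 408 CPM over 5 endothelial markers, against 11.7 to 157 and 5.99 to 31.6 CPM in the other 7 libraries. Keratinocyte markers were abundant in all 8 libraries, with Krt5 at 2434 to 5893 CPM. Krt5, Krt14, Krt1 and Dsg3, 4 of the 6 keratinocyte markers, were themselves higher in libraries labelled DKO, and the part of cell makeup in the results below was not tested. In a tissue of mixed cells, fewer cells of a type and less RNA per cell cannot be told apart.

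Mmp13 (ENSMUSG00000050578, chromosome 9, 7272514 to 7283331, plus strand, GRCm38) encodes collagenase 3, the main interstitial collagenase of mouse tissues. Control replicates 1 to 3 held 0.498, 0.884 and 0.130 CPM (6, 10 and 2 counts), compared with 13.3, 13.4 and 16.3 CPM in libraries labelled DKO (183, 197 and 289 counts). The groups lay far apart, and the 3 libraries labelled DKO lay close together, at 14.3 ± 1.70 against 0.504 ± 0.377 CPM (SD, n = 3 each). This gave a log2 fold change of 4.47 (adjusted p 0.000729 by edgeR, SE 0.50). The receptor-gene density applied to the exon length of Mmp13 came to 4.30 and 8.52 counts in control replicates 1 and 2, close to the counts found there. With that density subtracted the log2 fold change of Mmp13 was 5.64, and over 15 alternatives (other scalings, filters, tools or designs, or 1 library left out) it lay between 4.13 and 5.76 (adjusted p 2.81e-27 to 0.00464), past the threshold in each of these 15.

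Mmp3 (ENSMUSG00000043613, chromosome 9, 7445822 to 7455975, plus strand) encodes stromelysin 1, which cleaves proteoglycans, laminin and fibronectin and activates procollagenases. It held 1.58, 4.42 and 3.13 CPM in control libraries compared with 52.4, 21.6 and 8.45 CPM in libraries labelled DKO. Every library labelled DKO lay above every control, but those 3 libraries spanned a wide range, with replicate 1 far above replicate 3. Between the groups the log2 fold change was 3.04 (adjusted p 0.0272 by edgeR, SE 0.69). Mmp3 was no longer past the threshold in 8 of 16 alternatives (adjusted p 3.55e-07 to 0.388 over all of them), among them those without control replicate 1 (2.75), 2 (3.38) or 3 (3.14) or without DKO replicate 2 (3.21), limma-voom (2.78) and all libraries in one fit (3.08). Without DKO replicate 1 the log2 fold change of Mmp3 was 2.23, still past the threshold, and with control replicate 3 as the only control it was 3.02 and not past it.

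Mmp10 (ENSMUSG00000047562, chromosome 9, 7502352 to 7510240, plus strand) encodes stromelysin 2, known from keratinocytes at the leading edge of wounds. It held 7, 13 and 2 counts in the controls, or 0.581, 1.15 and 0.130 CPM, and 49, 17 and 17 counts in libraries labelled DKO, or 3.55, 1.16 and 0.958 CPM. The groups overlapped, since control replicate 2 lay above DKO replicate 3. Its log2 fold change of 1.36 (SE 0.84) did not pass the threshold (edgeR adjusted p 0.233). Receptor-gene densities applied to Mmp10 came to 2.77 and 5.49 counts in control replicates 1 and 2.

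Mmp9 (ENSMUSG00000017737, chromosome 2, 164940780 to 164955850, plus strand) encodes gelatinase B, which cleaves denatured collagen and basement membrane collagen and is also stored by neutrophils. It held 7.06, 6.01 and 14.1 CPM among controls, against 15.9, 18.8 and 15.8 CPM in libraries labelled DKO. The groups did not overlap, and control replicate 3 lay just under the lowest library labelled DKO. For Mmp9 a log2 fold change of 0.81 (SE 0.31) did not pass the threshold (edgeR adjusted p 0.102). Mmp9 passed it without control replicate 3 (1.35, adjusted p 0.00456) and without a filter on low counts (0.89, adjusted p 0.017), whereas against control replicate 3 alone it was 0.20 (adjusted p over 16 alternatives 0.00456 to 0.697). The 8 neutrophil markers summed to 3.04, 0.750 and 2.20 CPM in libraries labelled DKO and to 5.48, 12.3 and 0.260 CPM in control replicates 1 to 3, of which replicates 1 and 2 have the higher receptor-gene density. In libraries labelled DKO, Mpo and Elane were at 0 counts in all 3, whereas Csf3r held 26, 1 and 17 counts and Ltf 9, 4 and 13. The part of neutrophil RNA in the Mmp9 value was not tested.

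**Figure D2:**
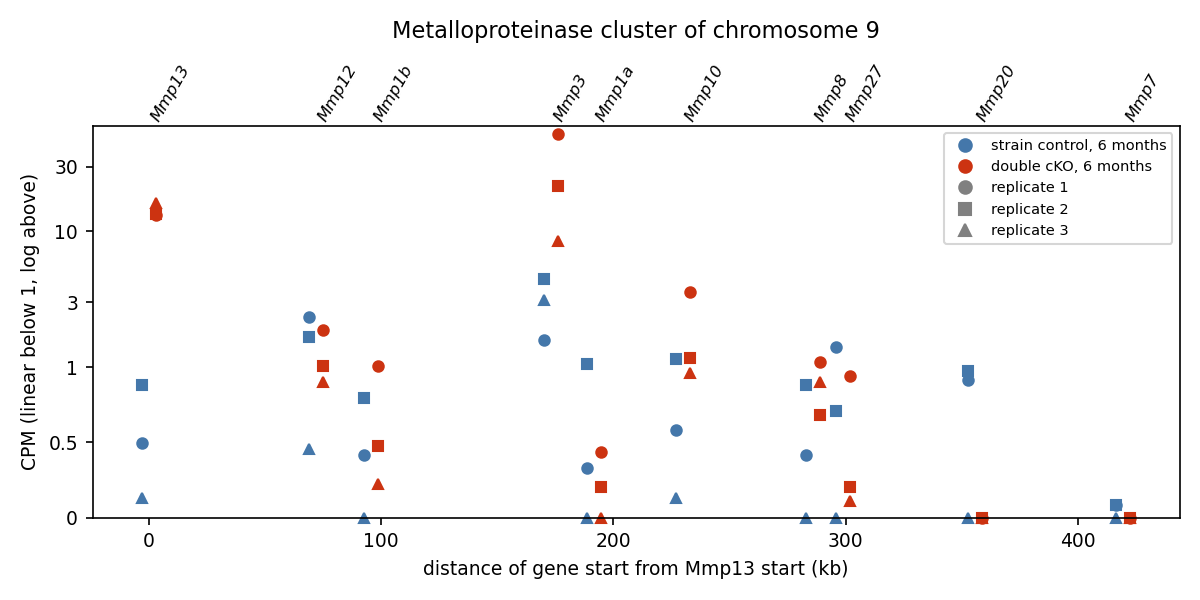
CPM of the 10 metalloproteinase genes of the chromosome 9 cluster in the 6 libraries at 6 months, against the distance of each gene start from that of Mmp13 in kb. The vertical axis is linear below 1 and logarithmic above, and points of the 2 groups are set 3 kb to either side of the gene start. Mmp13 and Mmp3 stand at 8.45 CPM or more in every library labelled DKO, whereas the 6 genes other than Mmp13, Mmp3, Mmp10 and Mmp12 stay at or below 1.41 CPM.

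Mmp13, Mmp3 and Mmp10 belong to a cluster of 10 metalloproteinase genes that spans 427 kb of chromosome 9 (7272514 to 7699585, GRCm38). Mmp13 starts it and Mmp3 lies 173.3 kb further on. Between them lie Mmp12, the macrophage elastase gene, and Mmp1b. Mmp12 held 28, 19 and 7 counts in control libraries compared with 26, 15 and 16 in libraries labelled DKO (log2 fold change -0.28, edgeR adjusted p 0.787). Mmp1a, the next gene after Mmp3, held 4, 12 and 0 against 6, 3 and 0 counts and was too low to be tested. Beyond Mmp10, the neutrophil collagenase gene Mmp8 held 5, 10 and 0 counts among controls, against 15, 10 and 16 in libraries labelled DKO (log2 fold change 0.81, edgeR adjusted p 0.513). The receptor-gene density of control replicates 1 and 2 came to 11.7 and 23.1 counts for Mmp12, 3.26 and 6.45 for Mmp1a and 3.90 and 7.73 for Mmp8. The fold changes of Mmp12 and Mmp8 therefore do not show that these genes were unchanged. Of the 10 cluster genes 6 were tested and 2, Mmp13 and Mmp3, passed the threshold, which 14.9% of all genes tested did. The close paralogs Mmp1a and Mmp1b can share reads. Of the 10 genes, 8 had a window with the AP-1 letters, among them Mmp20 and Mmp7, which held 0 counts in all 3 libraries labelled DKO (a count of 0 allows 3 counts, up to 0.217 CPM), and 2, Mmp1a and Mmp1b, had the AP-2 letters.

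The 2 plasminogen activator genes moved in opposite directions. Plau (ENSMUSG00000021822, chromosome 14, 20836662 to 20843388, plus strand), which encodes the urokinase-type activator, held 10.96, 11.04 and 22.3 CPM in control libraries compared with 26.0, 30.9 and 34.2 CPM in libraries labelled DKO. All 3 libraries labelled DKO lay above all controls, with control replicate 3 nearest to them. For Plau the log2 fold change was 0.96 (adjusted p 0.0468 by edgeR, SE 0.28). This call was lost in 8 of 16 alternatives (log2 fold change 0.39 to 1.46, adjusted p 0.000421 to 0.408), among them those without control replicate 1 (0.79) or 2 (0.80), without DKO replicate 1 (1.10), 2 (0.98) or 3 (0.89), and with the receptor-gene density subtracted (0.94). Without control replicate 3 the value was 1.46, and against control replicate 3 alone it was 0.39.

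Plat (ENSMUSG00000031538, chromosome 8, 22757727 to 22782844, plus strand), which encodes the tissue-type activator and is best known from endothelium, held 27.8, 79.3 and 52.8 CPM among controls, against 10.7, 20.8 and 8.68 CPM in libraries labelled DKO. The lowest control lay above the highest library labelled DKO, and control replicate 2 was the highest of all. The log2 fold change of Plat was -2.06 (adjusted p 0.0204 by edgeR, SE 0.44). It was not past the threshold in 5 of 16 alternatives (-2.48 to -1.65, adjusted p 1.49e-13 to 0.116), namely without control replicate 2 (-1.65) or DKO replicate 1 (-1.87) or 3 (-1.79), with all libraries in one fit (-2.01) and against control replicate 3 alone (-2.03). Fibroblast markers moved with Plat at 6 months: their sum was 53.0, 157 and 55.7 CPM in control libraries compared with 11.7, 22.9 and 23.05 CPM in libraries labelled DKO. None of the 6 was at 0 throughout libraries labelled DKO. The 5 endothelial markers summed to 16.8, 31.6 and 6.64 against 9.70, 7.02 and 8.57 CPM. Control replicates 1 and 2 have the higher receptor-gene density, and control replicate 3 lay below every library labelled DKO. The part of fibroblast and endothelial RNA in the Plat value was not tested.

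**Figure D3:**
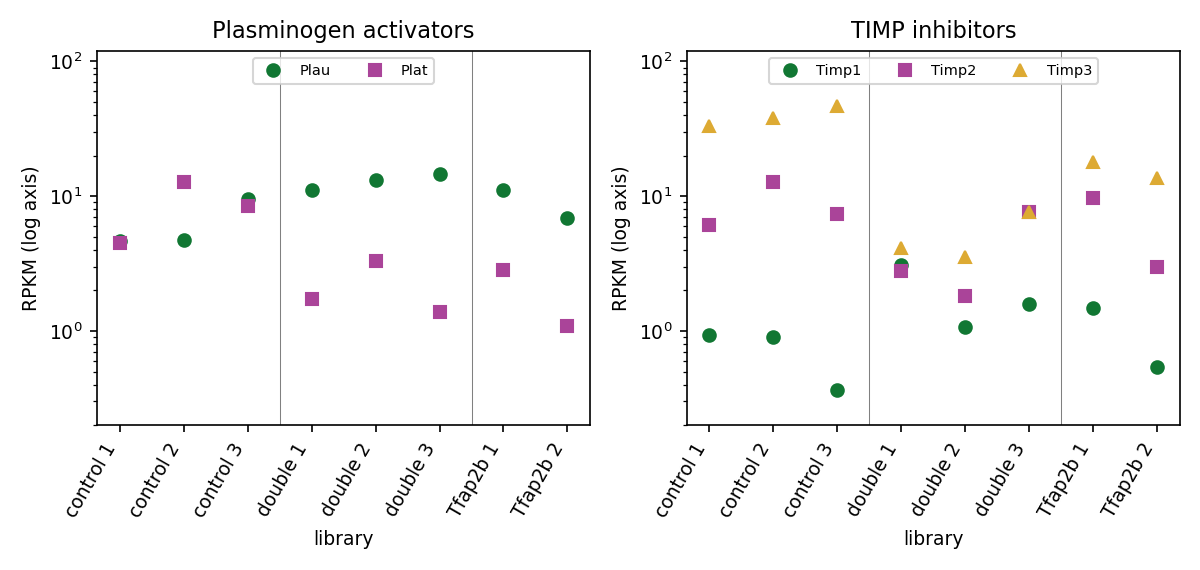
RPKM (log axis) of the plasminogen activators Plau and Plat and of the inhibitors Timp1, Timp2 and Timp3 in each of the 8 libraries, with grey lines between the groups. Plau lies above Plat by 3.96 to 10.5 times in libraries labelled DKO and by at most 1.12 times in the controls, and Timp3 is the highest of the 3 inhibitors in the controls.

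Between genes, levels were compared per length, as CPM divided by the exon length in kb (RPKM). The ratio of Plau to Plat RPKM was 1.05, 0.371 and 1.12 among controls, against 6.46, 3.96 and 10.5 in libraries labelled DKO. The 2 groups did not overlap, and the two-sided exact permutation test gave p = 0.1, the smallest that 3 against 3 libraries allow. Plau lay higher and Plat lower in libraries labelled DKO, each without overlap, so this outcome was fixed and is no further test. The ratio does not depend on the scaling of the libraries. Summed over both genes, activator RPKM was 9.14, 17.4 and 17.96 in control libraries compared with 12.8, 16.5 and 15.99 in libraries labelled DKO, which overlapped (exact permutation p = 1). The sum differed by less than the spread between libraries.

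Plaur (ENSMUSG00000046223, chromosome 7, 24462484 to 24475968, plus strand) encodes the receptor that holds urokinase at the cell surface. It held 5.398, 3.89 and 1.497 CPM among controls, against 4.20, 0.750 and 1.86 CPM in libraries labelled DKO. The groups overlapped widely, with the highest and the lowest value in different groups. The log2 fold change of -0.71 (SE 0.66) did not pass the threshold (edgeR adjusted p 0.464), and against control replicate 3 alone it was 0.50, with the opposite sign. The difference between the fold changes of Plau and its receptor was not tested.

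Timp1 (ENSMUSG00000001131, chromosome X, 20870166 to 20874735, plus strand) encodes a secreted inhibitor of most metalloproteinases. It was low throughout, at 0.830, 0.795 and 0.326 CPM in the controls (10, 9 and 5 counts) and 2.75, 0.954 and 1.41 CPM in libraries labelled DKO (38, 14 and 25 counts). All 3 libraries labelled DKO lay above the controls by a narrow margin. The log2 fold change of 1.16 (SE 0.67) did not pass the threshold (edgeR adjusted p 0.206), nor did any of 15 alternatives (0.73 to 1.96, adjusted p 0.161 to 0.627).

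Tnc (ENSMUSG00000028364, chromosome 4, 63959785 to 64047015, minus strand) encodes tenascin C, an extracellular glycoprotein that is sparse in resting skin and deposited under the advancing edge of a wound. It held 12.1, 15.6 and 19.99 CPM in control libraries compared with 61.6, 47.5 and 84.9 CPM in libraries labelled DKO. The lowest library labelled DKO lay well above the highest control, and the means were 64.7 ± 18.9 against 15.9 ± 3.94 CPM (SD, n = 3 each). The log2 fold change was 1.94 (adjusted p 0.00204 by edgeR, SE 0.25). Over 16 alternatives the value for Tnc lay between 1.64 and 2.22 (adjusted p 1.42e-17 to 0.0869), and it missed the threshold only against control replicate 3 alone, at 1.64.

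**Figure D4:**
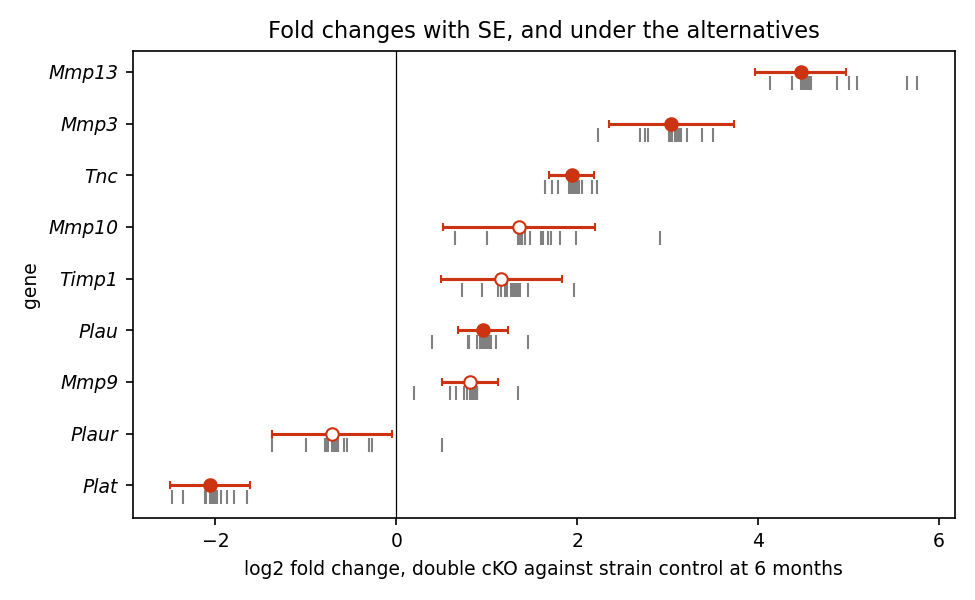
Log2 fold changes of the 9 genes at 6 months (circles, with bars of 1 SE), filled where the edgeR adjusted p was under 0.05. Grey ticks below each circle are the values under the alternatives. Mmp13, at 4.47, is the highest of the 9, and the ticks of Plaur fall on both sides of 0.

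By RPKM the order of the 9 genes differed between the groups. In the controls Plat was highest at 8.54 ± 4.12, followed by Plau at 6.30 ± 2.78, and Mmp13 was lowest at 0.189 ± 0.141 (SD, n = 3 each). Plat and Plau overlapped, Plau stood apart from Mmp9 at 2.56 ± 1.25, and all neighbours further down the order overlapped. In libraries labelled DKO Mmp3 had the highest mean, 15.3 ± 12.5, followed by Plau at 12.96 ± 1.76. Mmp3 was highest only in replicate 1, at 29.1 RPKM. In replicates 2 and 3 it held 12.0 and 4.69 RPKM, below Plau at 13.2 and 14.6. Its range overlapped those of Plau, Tnc, Mmp13 and Mmp9. By mean, Tnc came next at 8.32 ± 2.43 and then Mmp13 at 5.36 ± 0.637. Tnc stood apart from Plau, and Mmp13 from Tnc. Mmp13 overlapped Mmp9 at 4.76 ± 0.479, and Plat, at 2.15 ± 1.04, stood sixth, apart from Mmp9. The 4 metalloproteinases together summed to 3.40, 5.15 and 5.85 RPKM among controls, against 40.6, 23.0 and 15.8 RPKM in libraries labelled DKO (exact permutation p = 0.1, the smallest possible). Mmp3, Mmp9 and Mmp13 each lay higher without overlap in libraries labelled DKO, so this sum is no further test. Mmp3 made up most of that sum in replicates 1 and 2, while Mmp13 was its largest part in replicate 3.

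The profiles most like those of the 5 genes past the threshold were ranked by the root mean square difference of centred log2(CPM + 1) values over the 6 libraries at 6 months. Nearest to Tnc were Synpo (difference 0.100), Car12 (0.139) and Fam162a (0.148). Nearest to Plau were Fbxo5 (0.0496) and Hoxc4 (0.0709), which both shared with Plau a higher value in control replicate 3 than in the other controls. For Mmp3, Mmp13 and Plat the nearest genes lay at larger differences, 0.416 (the pseudogene Gm7897), 0.387 (2610528A11Rik) and 0.320 (Gsta2). The difference is not scaled to the size of a gene's change, so its values do not compare closeness of pattern between these 5 genes. Gm7897 held 60.7, 19.7 and 13.2 CPM in libraries labelled DKO, highest in replicate 1 and lowest in replicate 3, as Mmp3 was. The second to Mmp3 was Tll1, itself a secreted metalloproteinase gene, at 42.5, 21.2 and 9.58 CPM there. The ranking picked these genes for their likeness over the same 6 libraries. The replicate patterns they share with Mmp3 or Plau therefore follow from that choice and are no further result.

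**Figure D5:**
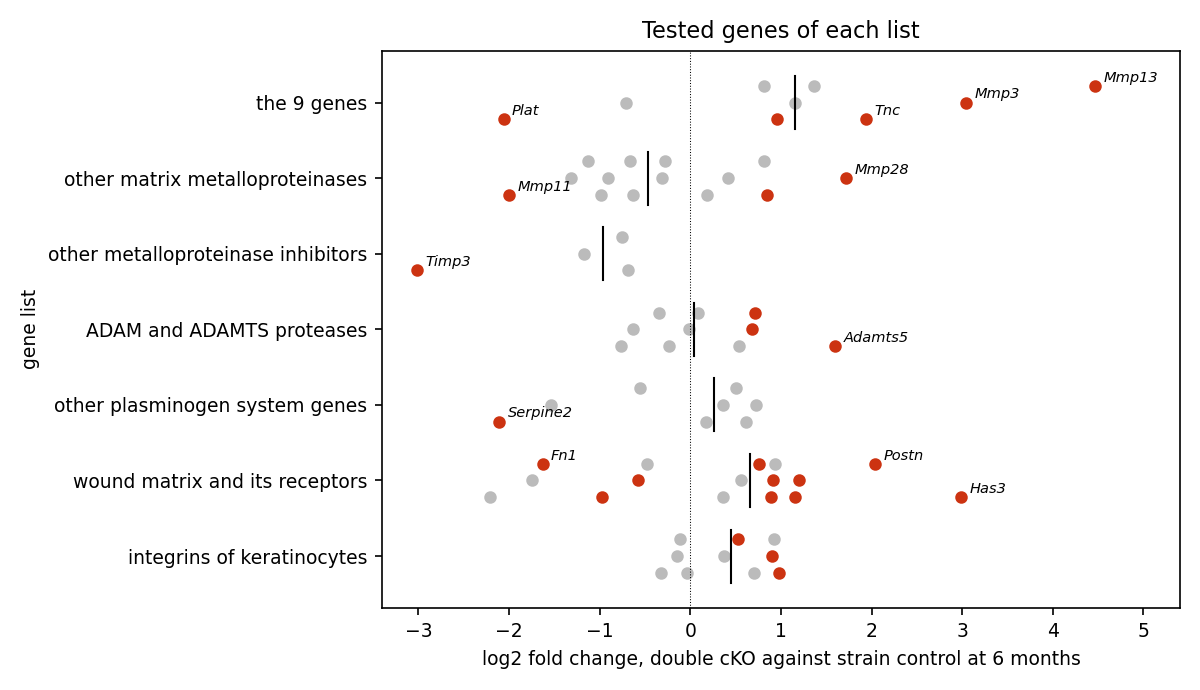
Log2 fold changes at 6 months of the tested genes in the set of 9 and in 6 further lists, 1 point per gene. Red points passed an edgeR adjusted p of 0.05, grey points did not, black bars are list medians, and called genes beyond 1.5 in either direction are named. Timp3 is the lowest point, at -3.02, and the wound matrix list has called genes on both sides of 0.

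Among 19 other metalloproteinase genes, 14 were tested, of which 2 were higher and 1 lower past the threshold, a share of 21.4% against 14.9% of all genes. Their median log2 fold change was -0.47. Several of these genes were near the receptor-gene density in control replicates 1 and 2. That density came to 11.7 and 23.1 counts for Mmp12, which held 28 and 19. For Mmp19, which held 7 and 21 counts there, it came to 5.49 and 10.9. The median therefore does not show that the list fell. Mmp28, which encodes epilysin, a metalloproteinase of keratinocytes, rose from 21.3, 25.5 and 36.8 to 112, 94.4 and 85.2 CPM (log2 fold change 1.72, edgeR adjusted p 0.00137), and all 16 alternatives kept it past the threshold. Mmp15, a membrane-anchored member, rose by a log2 fold change of 0.85 (adjusted p 0.0215, edgeR) and lost the threshold in 5 of 16 alternatives. Mmp11, or stromelysin 3, fell by 2.0 on the log2 scale (adjusted p 0.0437, edgeR) at 0.225 to 2.03 CPM and lost the threshold in 12 of 15. With the receptor-gene density subtracted, the log2 fold change of Mmp11 was -1.79 and not past the threshold. Mmp14, the membrane type 1 enzyme that activates proMmp13 and proMmp2, held 38.7, 53.2 and 49.6 against 51.4, 67.3 and 81.0 CPM and did not pass (adjusted p 0.174, edgeR).

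Among the other inhibitor genes, only Timp3 passed the threshold. Timp3, which encodes a matrix-bound inhibitor of metalloproteinases and ADAM proteases, fell from 269, 312 and 381 CPM to 33.4, 28.6 and 62.04 CPM. Each library labelled DKO lay far below each control (log2 fold change -3.02, SE 0.30, edgeR adjusted p 0.000991). It kept the threshold in 15 of 16 alternatives and missed it against control replicate 3 alone (-3.25). Timp2 (-1.17, adjusted p 0.179), Timp4 and Reck did not pass, so 1 of 4 inhibitor genes was lower, where 8.59% of all genes were. The median of the 4 was -0.96, against -0.035 over all genes tested. In control replicates 1 and 2 the receptor-gene density came to 9.49 and 18.8 counts for Timp4, which held 9 and 31. For Reck, which held 14 and 26 counts there, it came to 7.69 and 15.2. The median therefore does not show a fall of the list beyond Timp3. The RPKM of Timp1 to Timp4 together was 40.25, 52.4 and 54.6 in control libraries compared with 9.98, 6.45 and 17.1 in libraries labelled DKO, groups that did not overlap (exact permutation p = 0.1, the smallest possible). Timp3 alone made up 33.05, 38.3 and 46.8 RPKM of the control sums, so the sum mainly repeats its fall. Timp1 lay higher in libraries labelled DKO, and Timp2 and Timp4 overlapped. Fibroblast markers, like Timp3, were lower at 6 months in libraries labelled DKO, and their part in its value was not tested.

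Of 11 ADAM and ADAMTS protease genes, 10 were tested and 3 were higher, where 6.26% of all genes were, with a median of 0.039. Adamts5, an aggrecan-cleaving protease gene, rose from 1.91, 3.62 and 1.76 to 6.88, 6.27 and 10.9 CPM (log2 fold change 1.60, edgeR adjusted p 0.0256). With the receptor-gene density subtracted, 13 and 25.8 of the 23 and 41 counts of Adamts5 in control replicates 1 and 2, its log2 fold change was 2.37. Adam10, the main shedding enzyme of Notch and cadherins, was higher by 0.71 (adjusted p 0.0163) and Adamts1 by 0.68 (adjusted p 0.042). Alternatives that ended these calls numbered 6 of 16 for Adamts5, 4 of 16 for Adam10 and 9 of 16 for Adamts1.

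Of 10 other genes of the plasminogen system, 8 were tested and 1, Serpine2, passed, a share of 12.5% that is close to the 14.9% of all genes. Serpine2, which encodes protease nexin 1, an inhibitor of urokinase and thrombin, fell from 6.98, 5.21 and 7.10 to 0.869, 1.98 and 1.52 CPM (log2 fold change -2.11, SE 0.41, edgeR adjusted p 0.00934) and lost the threshold in 2 of 16 alternatives. Serpinb2, a serpin that inhibits urokinase, held 1450 to 1810 CPM in the controls against 789 to 1341 CPM and did not pass (-0.55, adjusted p 0.0878). The plasminogen gene Plg, mainly a liver gene, held 9, 28 and 0 counts among controls, against 0 in each library labelled DKO, and it was too low to be tested. Its control counts stood only in replicates 1 and 2, where the receptor-gene density came to 4.44 and 8.79 counts for Plg. Among genes that bind plasminogen at cell surfaces, Anxa2, S100a10 and Plgrkt did not pass (adjusted p 0.371, 0.116 and 0.292). The median of the list was 0.27.

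Wound matrix genes and their receptors had the most calls of these 6 lists, 7 higher and 3 lower of 16 tested, a share of 62.5% against 14.9% of all genes, with a median of 0.66. Has3, which encodes a hyaluronan synthase, rose from 16.4, 15.6 and 11.6 to 205, 89.5 and 73.9 CPM (log2 fold change 2.99, SE 0.39, edgeR adjusted p 0.00337). Like Mmp3, it was highest in DKO replicate 1. Postn, which encodes the tenascin-binding protein periostin, rose from 60.8, 121 and 208 to 437, 376 and 864 CPM (2.04, adjusted p 0.046), a call that 8 of 16 alternatives ended. The log2 fold change of Postn was 2.63 without control replicate 3 and 1.37 against control replicate 3 alone. Tnxb, the tenascin X gene, rose by 1.20 (adjusted p 0.0284, lost in 5 of 16), and its value was 0.59 against control replicate 3 alone. Lama3, which encodes a chain of a basement membrane laminin on which keratinocytes migrate, the matrix protein gene Sparc and the hyaluronan receptor Cd44 also passed as higher (Lama3 0.76, Sparc 1.15 and Cd44 0.91). Fn1, the fibronectin gene, fell from 14.9, 34.5 and 38.7 to 9.85, 6.68 and 12.9 CPM (-1.63, adjusted p 0.0209, lost in 4 of 16), Thbs1, the thrombospondin 1 gene, fell by 0.97 on the log2 scale (adjusted p 0.0415, lost in 7) and the proteoglycan gene Sdc4 fell by 0.58 (adjusted p 0.0338, lost in 9). Fn1 and the fibroblast markers were both lower, and the part of fibroblast RNA in the Fn1 value was not tested.

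Of 11 integrin genes, 10 were tested and 3 were higher, where 6.26% of all genes were, with a median of 0.45. Itga6 and Itgb4, the subunits of the hemidesmosome integrin, rose by 0.90 (adjusted p 0.00408) and 0.98 (adjusted p 0.0118), and Itga6 kept the threshold in all 16 alternatives, whereas Itgb4 lost it in 2. Itgb1 rose by 0.53 (adjusted p 0.044, lost in 8 of 16). Itgb6, whose product pairs with αv as a receptor for tenascin C and fibronectin, held 21.3, 18.5 and 30.9 against 65.0, 28.8 and 48.2 CPM and did not pass (0.92, adjusted p 0.0642).

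In the 2 libraries labelled Tfap2b knockout at 3 weeks no library of a control of that age had counts, so values are given without a comparison. Mmp13 was at 0.540 and 0.480 CPM and Mmp10 at 1 count in each library. Mmp9 was at 29.99 and 31.25 CPM, Plau at 25.98 and 16.1, Plat at 17.6 and 6.79 and Tnc at 40.0 and 23.98 CPM. The 2 libraries agreed closely in Mmp9 and Mmp13 and differed most in Plaur, at 10.8 and 1.28 CPM, and in Mmp3, at 4.55 and 1.04 CPM. The higher value of each pair was in replicate 1, the library with dermal markers, for all of the 9 genes but Mmp9 and Mmp10.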

How the data were processed

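Total RNA of mouse epidermis was sequenced after depletion of ribosomal RNA, with paired reads on an Illumina instrument, per the labels' protocols. The deposited values are raw counts per gene. Per the submitters' processing notes, Trimmomatic 0.36, STAR 2.5.2b and featureCounts of Subread 1.5.2 were used, with the builds GRCm38 and GRCh38 named. The use of strand and the handling of reads with several positions were not given in the sources used here. Of 49315 Ensembl identifiers, 48970 had a symbol in the GENCODE M21 table and 44820 had the same start, end and strand in M21 (GRCm38).

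Groups came from the sample titles. The test used edgeR 4.0.16 in R 4.3.3 (filterByExpr, TMM, glmQLFit with robust = TRUE, prior count 2, glmQLFTest, Benjamini-Hochberg, threshold 0.05) on the 6 libraries at 6 months, with a common biological coefficient of variation of 0.311. The steps were tested on simulated data. CPM and RPKM were computed here from total counts and deposited exon lengths. Counting error only is covered by the limit of 3 counts for a count of 0.

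Alternatives were DESeq2 size factors, total counts, no filter, at least 10 counts in every library, DESeq2 1.42.0, limma-voom (limma 3.58.1), the replicate number as a block, all 8 libraries in one fit, subtraction of the counts per exonic kb of 1418 receptor genes, and each library left out. A fit with control replicate 3 as the only control was added after seeing the data; it assumes that this library varies like the other group. The 9 genes and the lists were chosen with earlier results of these data known. Named genes were the 9, up to 3 rises and 3 falls past the threshold in each list, and the 3 nearest profiles to each called gene. Others are named as examples chosen after their values were seen, and a few genes of the lists are not reported here by name. Lists of neutrophil, fibroblast, endothelial, keratinocyte, macrophage and T cell markers were also read. The 7 macrophage markers summed to 46.8 to 60.0 CPM in control libraries compared with 48.1 to 63.9 CPM in libraries labelled DKO, and the 4 T cell markers to 58.05 to 125 and 32.2 to 104 CPM.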

Additional observations from a re-analysis of the deposited data

Results flagged for a closer look

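The 2 libraries labelled Tfap2b knockout at 3 weeks entered no comparison, and for 2 of the 9 genes both held more than all 3 controls at 6 months. Mmp9 was at 29.99 and 31.25 CPM, against at most 14.1 CPM in a control. Tnc was at 23.98 and 40.0 CPM, against at most 19.99 CPM. Age and genotype both differ between these libraries and the controls, so their parts cannot be told apart, and the difference was not tested.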

How the results depend on the processing

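Over the 16 alternatives, the count of genes past the threshold, 2637, became 4809 without a filter, 4173 with DESeq2, 1729 with the replicate block, 1548 with all libraries in one fit and 437 with control replicate 3 as the only control. Without 1 library it ranged from 668 (DKO replicate 1) to 7544 (control replicate 3). Of the 9 genes, 5 were past the threshold, 2 with all libraries in one fit, 1 (Mmp13) with control replicate 3 as the only control, and 2 to 5 without 1 library, 2 being the count without control replicate 2. Of 141 values of the 9 genes under alternatives, 116 kept direction and side of the threshold, 22 lost it, 2 gained it and 1 reversed: Plaur, at 0.50 against control replicate 3 alone. The cause was not tested. With at least 10 counts required in every library, Mmp10, Mmp13 and Timp1 were not tested, because each held fewer than 10 in at least 1 control. The replicate numbers gave no sign of pairing: deviations of same-numbered libraries correlated at 0.0276, -0.161 and -0.0574, against -0.111 to 0.169 for unlike numbers. With so few libraries, these values do not settle whether the samples were paired. With the replicate block, 4 of the 9 genes passed, and Mmp3 (2.69, adjusted p 0.0682) did not. Counts under about 10 limit Mmp10, Timp1 and the control level of Mmp13.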

Other observations

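In the library labelled Tfap2b knockout replicate 1, 3 further matrix protease genes stood at least 10 times above every other library: Mmp19 at 109 CPM (at most 1.86 elsewhere), Adam12 at 77.4 CPM (at most 4.42) and Adamts4 at 50.6 CPM (at most 2.65). These genes were chosen after their values were seen. The same library held 1128 CPM of the collagen gene Col1a1 and 185 CPM of the endothelial cadherin gene Cdh5, against at most 64.9 and 2.65 CPM in the other 7. None of the 9 genes met that 10-fold margin there.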
